A study of Caenorhabditis elegans with 52 samples.

Results

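The genes described here are 10 with known roles at the core of meiotic recombination in Caenorhabditis elegans: spo-11 (T05E11.4), dsb-1 (F08G5.1) and dsb-2 (F26H11.6), which make or license the DNA breaks; mre-11 (ZC302.1) and rad-50 (T04H1.4), which process the ends; rad-51 (Y43C5A.6), the strand exchange protein; and msh-5 (F09E8.3), him-14 (ZK1127.11), cosa-1 (Y71H2AM.7) and zhp-3 (K02B12.8), which turn a subset of breaks into crossovers. They were chosen by gene name, with earlier results of these data known. They are 10 of the 45461 gene IDs in the count files, and all 10 passed the filter on low counts. Poly(A) RNA of whole young adult hermaphrodites was sequenced in 52 libraries of 3 genotypes. The genotypes were the wild type N2 (18 libraries), the mutant puf-8; lip-1 (called PL, 24 libraries) and the mutant puf-8 fbf-1 (called PF, 10 libraries), so both mutants lack the RNA-binding protein gene puf-8. Worms were taken untreated from plates or kept in liquid S medium with bacteria and either the solvent DMSO or 100 uM U0126, an inhibitor of the kinase MEK. N2 was sampled after 1, 2, 6 and 18 h, PL after 1, 2, 4, 6 and 18 h, and PF after 1, 2, 4 and 6 h. Of the 29 groups, 19 held 2 libraries, 2 (PL at 1 h, DMSO and U0126) held 3, and 8 (PF in liquid) held 1. The labels do not say whether replicates came from separate cultures, so the p-values speak for the scatter of these libraries alone.

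In the worm, meiotic recombination starts when the topoisomerase-like SPO-11 cuts both DNA strands on chromosomes aligned in early meiotic prophase, with DSB-1 and DSB-2 keeping the nuclei in a state that permits cutting. The ends are resected with the help of MRE-11 and RAD-50, and RAD-51 filaments search the homologous chromosome. MSH-5 and HIM-14 (the worm MSH-4) form a complex on the recombination intermediates, and COSA-1, a cyclin-like protein, and ZHP-3, a RING-finger protein, mark the sites that become crossovers. These proteins act in the germline, at the pachytene stage and before it, in oocyte and sperm production alike, and mre-11, rad-50 and rad-51 also serve DNA repair in other cells. The phosphatase LIP-1 lowers the activity of the ERK-type kinase MPK-1, whose activator MEK is the target of U0126, and the PUF proteins PUF-8 and FBF-1 repress mRNAs in the germline.

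The total of counts assigned to genes lay between 9364012 and 25603070 in the N2 libraries, between 5658731 and 35120700 for PL, and between 5370270 and 15996513 for PF, and a member had between 18 and 6562 counts in a library. The mutated genes were set against the labels. puf-8 had a median of 150 counts per 1000000 of the scaled library total (CPM) in N2, 5.98 in PL and 4.74 in PF. lip-1 was at 0.359 to 3.72 CPM in PL against 11.3 to 96.4 in N2. It was also low in PF, at 3.4 to 9.02, though not named as mutated there, so it does not separate the mutants. fbf-1 was at 0.357 to 3.89 CPM in PF, 13 to 39.4 in PL and 11.2 to 52.7 in N2. The lowest N2 value of puf-8, 25.9 CPM, lay under the highest PL value, 36.6. The library labelled N2 untreated replicate 2 stood apart: it correlated with replicate 1 at r = 0.64 across genes, had a mean log2 level of 7.12 over 11 sperm genes against 0.48 in replicate 1, and 5.06 over 12 oocyte genes against 9.49. PL replicates 1 and 2 at 1 h, in DMSO and in U0126, differed from replicate 3 (r = 0.882 to 0.919), with molting genes up to 6.54 in DMSO and 6.58 in U0126. Other replicate pairs correlated at 0.966 to 0.997. The 6 untreated libraries were therefore kept out of the fit of the 46 in liquid. Molting genes, 10 in the list, also differed by hour and genotype in liquid. In N2 in DMSO their means were 2.5 and 2.9 at 1 h, 5.21 and 5.24 at 6 h, and 5.06 and 5.26 at 18 h. In PL in DMSO they were 1.96 and 2.03 at 6 h and 2.06 and 2.1 at 18 h. Their part in the members' differences between the genotypes was not tested. A list of 12 genes of general germline function (glh-1, pgl-1, csr-1 and others) averaged 7.59 to 7.99 (log2) in N2 in DMSO at 1 to 6 h, 6.25 to 6.87 in PL and 6.33 to 6.66 in PF. In whole worms, fewer germ cells at a stage and less RNA per cell cannot be told apart.

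In N2 mre-11 and rad-51 had the highest levels per length and msh-5 the lowest. The median over the 16 liquid-medium N2 libraries, in CPM per kb of exon, was 61.6 for mre-11, 50.3 for rad-51, 43.2 for rad-50, 42.2 for dsb-1, 34.9 for spo-11, 32.8 for zhp-3, 32.4 for dsb-2, 24.1 for him-14, 23 for cosa-1 and 19 for msh-5. The crossover genes other than zhp-3 thus stood at the lower end of the order. In PL the order changed, with rad-51 first at 30.8 CPM per kb, then rad-50 at 17.2 and mre-11 at 14.6, and him-14, cosa-1 and msh-5 between 6.01 and 6.15. PF had the same leading gene, rad-51 at 26.4, followed by mre-11 at 11.8 and rad-50 at 9.8. Neighbours in these orders, such as spo-11 (20.2 to 38.9 CPM per kb over libraries), zhp-3 (25.5 to 39.9) and dsb-2 (24.4 to 46.6) in N2, had overlapping ranges.

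**Figure D1:**
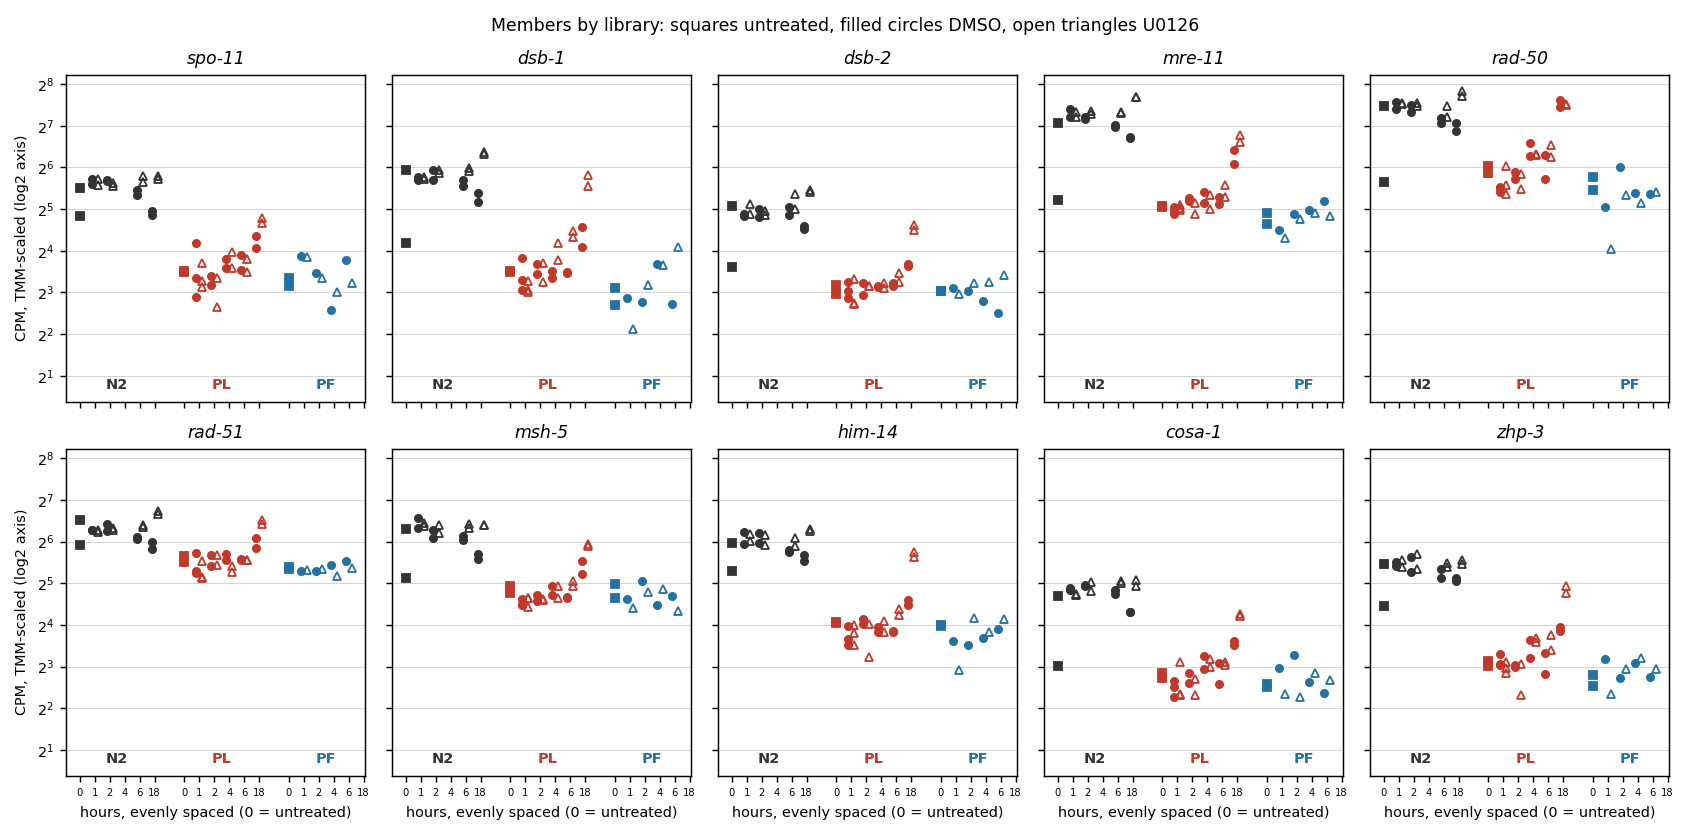
Level of each gene in every library, in CPM after TMM scaling on a log2 axis, by genotype (black N2, red PL, blue PF) and hour (0 is untreated, hours evenly spaced); squares are untreated, filled circles DMSO and open triangles U0126 libraries. At 1 to 6 h the PL and PF points lie under the N2 points for all 10 genes, with the smallest gap for rad-51. On the mean, the PL points at 18 h are higher, and the N2 DMSO points lower, than at 6 h.

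The first comparison set PL against N2 in DMSO at the hours both have. All 10 genes were called lower in PL at 1, 2 and 6 h, where 31.9%, 32.9% and 36.1% of the 16323 genes tested were called lower (edgeR quasi-likelihood F test, Benjamini-Hochberg adjusted p under 0.05, as for every call given here). Their libraries did not overlap between the genotypes. The share of all genes without overlap was not counted, so no weight is put on this. The median log2 fold change of the 10 was -2.21 at 1 h, -1.98 at 2 h and -1.77 at 6 h, against medians over all genes of 0.60, 0.45 and -0.09. All 10 were called with any single library left out, and at 1 h also with only PL replicate 3 kept in each treatment. Of the 12 germline genes, 10 were called lower at each of these hours, and the members are set against them further on. Genes of other tissues and stages differed between the genotypes as well. In DMSO at 1 to 6 h, 12 oocyte genes had means of 8.98 to 9.23 (log2) for the N2 libraries, 4.36 to 7.4 for PL and 5.12 to 5.69 for PF. Means of 11 sperm genes were 0.35 to 1.07, 4.73 to 6.16 and 6.27 to 6.5 in that order. For 4 spermatocyte genes they were 3.8 to 3.96, 4.12 to 5.44 and 5.49 to 5.86. For 6 somatic genes they were 6.73 to 7.42, 7.94 to 9.21 and 7.8 to 8.3. Their part in the members' differences was not tested.

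Among the break-formation genes, dsb-1 at 2 h stood at 61.3 and 51.6 CPM in the N2 libraries and at 12.8 and 10.9 CPM in PL. That was a log2 fold change of -2.25 ± 0.20 (SE, n = 2 and 2, adjusted p = 8.19e-10). It fell by a like amount at 1 h (-2.32 ± 0.18) and 6 h (-2.16 ± 0.20). For spo-11, whose product cuts the DNA, the N2 libraries at 2 h had 52.3 and 50.7 CPM and the PL libraries 9.02 and 10.5, a log2 fold change of -2.39 ± 0.28 (adjusted p = 5.88e-08). The 3 PL libraries at 1 h spread for spo-11 from 7.46 to 18.3 CPM, the highest being replicate 3, against 52.7 and 48.5 in N2. The paralog of dsb-1, dsb-2, went from 32.1 and 28.2 CPM in N2 to 9.37 and 7.67 in PL at 2 h (-1.82 ± 0.18, adjusted p = 3.56e-09). At 2 h the libraries of the genotypes were apart for these 3 genes, as for all 10. How many of all genes this held for was not counted.

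Of the end-processing pair, mre-11, the nuclease, had 148 and 143 CPM in N2 at 2 h and 36.7 and 38.2 in PL, a log2 fold change of -1.96 ± 0.13 (adjusted p = 7.28e-12). Its partner rad-50, an ATPase that bridges DNA ends, had 162 and 180 CPM in N2 and 59.2 and 52.8 in PL (-1.61 ± 0.18, adjusted p = 5.21e-08). The genes of this pair differed in how the gap moved with the hour. For rad-50 the log2 fold change was -1.99 at 1 h and -1.07 ± 0.18 at 6 h, while for mre-11 it was -2.34 at 1 h and -1.78 at 6 h. In the PL DMSO libraries rad-50 stood at 42.8 to 46.3 CPM at 1 h, 77.9 and 95.9 at 4 h, and 52.9 and 79.3 at 6 h.

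The strand exchange gene rad-51 showed the smallest difference of the 10 at each of these hours. It stood at 85.8 and 76.3 CPM in N2 at 2 h and at 42.5 and 51.1 in PL, a log2 fold change of -0.79 ± 0.14 (adjusted p = 3.13e-05). At 6 h its difference was -0.52 ± 0.14 (adjusted p = 0.00266), with 66.4 and 69.5 CPM in N2 against 47.6 and 46.8 in PL. That call was lost with relative log expression (RLE) size factors, where rad-51 was at -0.24 (adjusted p = 0.149), and with DESeq2 (adjusted p = 0.136); RLE put the median of all genes at 6 h at 0.17 in place of -0.09. PL replicate 3 at 1 h, one of the libraries without high molting genes, had 52.5 CPM of rad-51 against 38.9 and 38.2 in replicates 1 and 2, and with replicate 3 alone the difference at 1 h was -0.55 in place of -0.83.

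Of the crossover genes, zhp-3 had 49.5 and 38.8 CPM in N2 at 2 h and 7.93 and 8.26 in PL, a log2 fold change of -2.44 ± 0.21 (adjusted p = 4.42e-10). For cosa-1 the values were 30.9 and 30.6 CPM in N2 and 6.09 and 7.15 in PL (-2.21 ± 0.21, adjusted p = 3.2e-09). The products of both genes mark crossover sites. The pair of MutS-type genes fell as well: him-14 went from 73.3 and 62.6 CPM to 16.2 and 17.7 (-2.0 ± 0.19, adjusted p = 3.35e-09), and msh-5 from 77.6 and 68.3 to 23.7 and 26.3 (-1.54 ± 0.12, adjusted p = 1.5e-10). By the WBcel235 annotation, him-14 shares 154 bp of exon, 5.86% of its length, with nos-2 on the opposite strand, and cosa-1 shares 178 bp, 14%, with Y71H2AM.12 on the opposite strand. The library kit does not keep strand, so reads from these stretches cannot be told apart. nos-2 itself was lower in PL by a log2 fold change of -4.21 at 2 h.

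**Figure D2:**
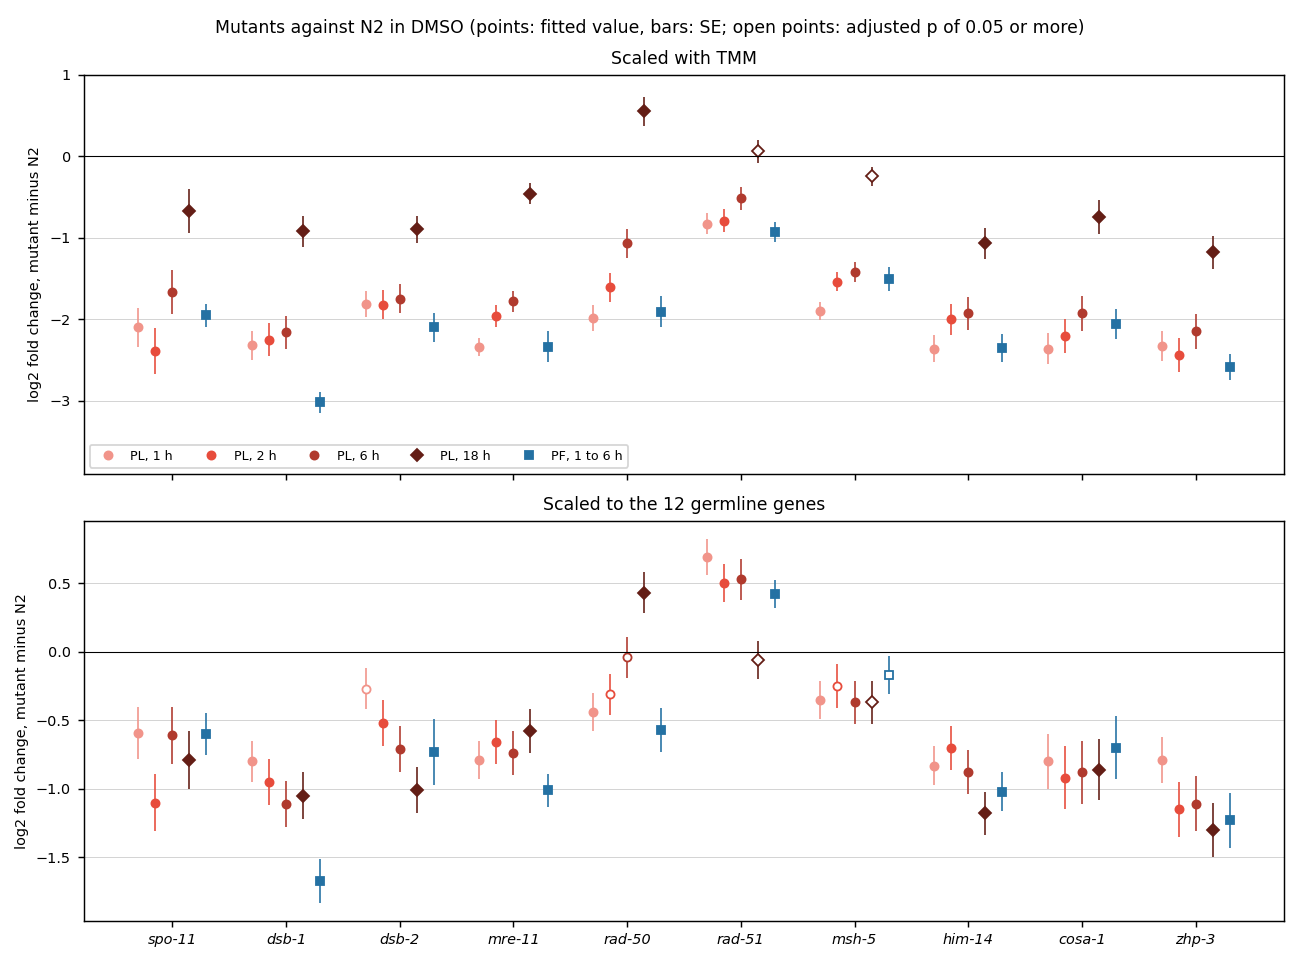
Fitted log2 fold change (mutant minus N2, in DMSO) of each gene with its SE, for PL at 1, 2, 6 and 18 h and for PF over 1 to 6 h, scaled with TMM (upper panel) and to the 12 germline genes (lower panel); open points have an adjusted p of 0.05 or more. In the upper panel rad-51 is nearest to 0 of the 10 genes at 1 to 6 h and rad-50 is above 0 at 18 h; in the lower panel rad-51 lies above 0 at 1 to 6 h, and the 8 genes other than rad-50 and rad-51 lie under 0 throughout.

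To set the members beside other germline mRNAs, the same fit was made with libraries scaled to equal geometric mean of the 12 germline genes. This list of 12 does not stand for the germline as a whole. On that scale 8 members stayed lower in PL at 1 h, 7 at 2 h and 8 at 6 h, where 9%, 12% and 12.4% of all genes were called lower. The falls of dsb-1 relative to the germline genes were -0.80, -0.95 and -1.11 (log2) at 1, 2 and 6 h, those of zhp-3 -0.79, -1.15 and -1.11, and those of spo-11 -0.59, -1.10 and -0.61. The value of rad-51 turned its sign, lower with TMM and higher relative to the germline genes, by 0.69, 0.50 and 0.53 (adjusted p = 0.00308 at 6 h); 73.9%, 62.2% and 49.2% of all genes were called higher there. nos-2 had log2 fold changes of -5.24, -4.21 and -2.75 at these hours, and without it in the list, a choice made after seeing the data, rad-51 was higher by 0.38 at 1 h (adjusted p = 0.00583), by 0.38 at 6 h (adjusted p = 0.0149) and, not called, by 0.25 at 2 h (adjusted p = 0.0813). For rad-50 relative to the germline genes the values were -0.44 at 1 h, which was called, and -0.31 at 2 h and -0.04 at 6 h, which were not.

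A ratio of members within a library is free of any scaling. The ratio of rad-51 to zhp-3, in counts per kb, ran between 1.26 and 1.97 over the 16 liquid-medium N2 libraries, between 2.52 and 8.74 over the 22 of PL, and between 3.26 and 6.6 over the 8 of PF. N2 did not overlap with either mutant in these libraries. This restates the differences above, as rad-51 had the smallest of the members at 1 to 6 h. Only the pairs given here were taken, and the share of other gene pairs without overlap was not counted. No weight is put on the separation. The ratio of rad-51 to spo-11 was likewise 1.36 to 1.94 in N2, with 2.29 to 7.6 for PL and 2.51 to 6.76 for PF. For dsb-1 and its paralog dsb-2 the ratio was 1.13 to 1.44 in N2, and its ranges of 0.698 to 1.66 in PL and 0.407 to 1.35 in PF overlapped that of N2. The ratio of rad-50 to mre-11 was 0.556 to 0.77 in N2 and 0.752 to 1.52 in PL, that of rad-51 to dsb-1 was 1.05 to 1.5 in N2 and 1.29 to 4.55 in PL, and that of him-14 to msh-5 was 1.11 to 1.69 in N2 and 0.62 to 1.39 in PL, so that N2 and PL overlapped for all 3.

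**Figure D3:**
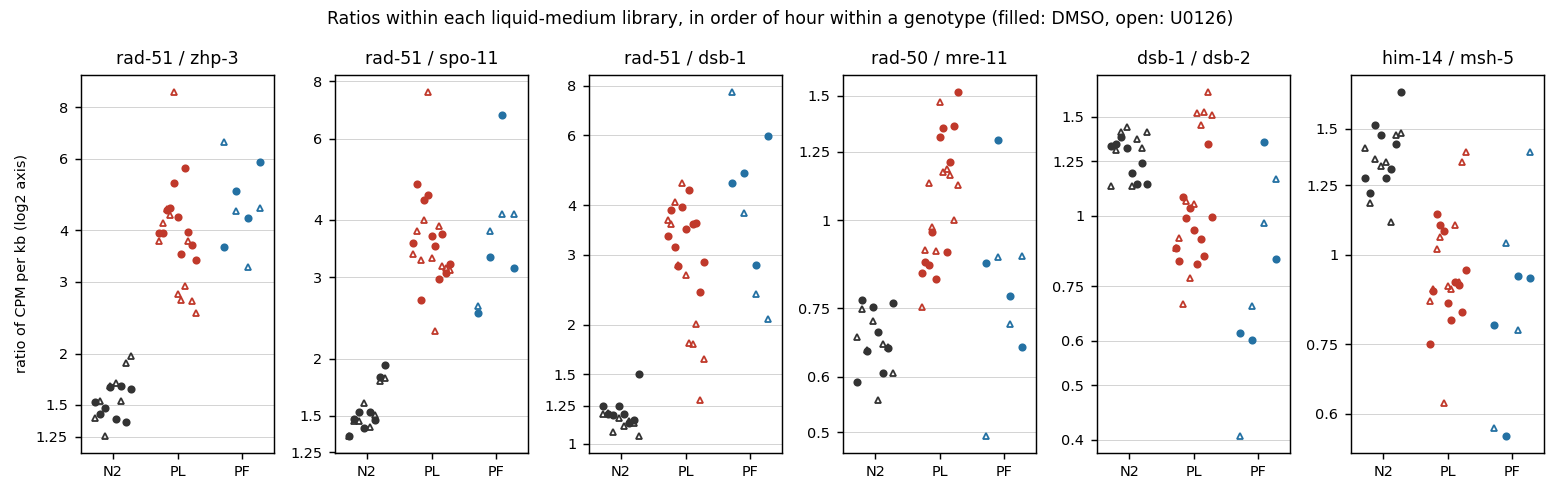
Ratio of members within each of the 46 liquid-medium libraries, in counts per kb on a log2 axis, by genotype and, within a genotype, in order of hour (filled circles DMSO, open triangles U0126). The N2 points of rad-51 to zhp-3 (1.26 to 1.97) and rad-51 to spo-11 (1.36 to 1.94) lie under all PL and PF points, while the other ratios overlap for at least 1 mutant.

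The second mutant, PF, had 1 library per hour, so it was compared with N2 over 1, 2 and 6 h in DMSO, with hour as a factor. All 10 genes were lower, where 37.7% of the 14493 genes tested were called lower, with a median log2 fold change of -2.08 against 0.07 over all genes. The largest difference was that of dsb-1, at 7.32, 6.87, 12.9 and 6.62 CPM in the PF DMSO libraries at 1, 2, 4 and 6 h. Its log2 fold change from N2 was -3.02 ± 0.13 (adjusted p = 5.54e-08). Relative to the germline genes 8 members were lower (16% of genes), dsb-1 by the most at -1.67. The smallest was again that of rad-51, at 39.3, 39.1, 43 and 46.6 CPM (-0.93 ± 0.12, adjusted p = 7.29e-05). On that scale rad-51 was 0.42 higher in PF (63.5% of genes higher), and 0.14 higher and not called without nos-2 (adjusted p = 0.237). The others lay between -1.51 (msh-5) and -2.59 (zhp-3).

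PL and PF were not told apart at these genes by the main test. Over 1 to 6 h in DMSO edgeR called 0 of the 10, with 2 at an unadjusted p under 0.05 and 1 with DESeq2 (mre-11), where 8.81% of genes were called in either direction. The differences nearest to the threshold were those of mre-11, 0.30 ± 0.09 (adjusted p = 0.0563), and rad-50, 0.50 ± 0.18 (adjusted p = 0.106), and dsb-1 was at 0.47 ± 0.22 (adjusted p = 0.177), all with overlapping libraries. A contrast taken from the fit of all 46 libraries called these 3 genes higher in PL. In the untreated worms 0 of the 10 were called between the mutants, also at an unadjusted p under 0.05 and with DESeq2, where 0.984% of genes were called in either direction.

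The untreated comparison with N2 rested on a pair of unlike libraries. For dsb-1 the N2 values were 61.7 CPM in replicate 1 and 18.1 in replicate 2, and for rad-50 they were 177 and 50.5. All 10 genes were called lower in untreated PL (25.6% of genes lower) and all 10 in untreated PF (25.8%), with medians of -1.41 and -1.60. Without N2 replicate 2 the medians were -1.94 and -2.09 with 10 called in each, and without N2 replicate 1 there were 5 called in PL and 7 in PF. The rad-50 value in PL was -0.88 (adjusted p = 0.0252) with both, -1.51 without replicate 2 and 0.28 (adjusted p = 0.355) without replicate 1. The PL untreated libraries, at 11.2 and 11.4 CPM of dsb-1 and 65.5 and 58.3 of rad-50, were close to each other. With the 6 untreated libraries fitted alone in edgeR, 0 were called in either mutant, with 3 in PL and 4 in PF at an unadjusted p under 0.05.

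At 18 h in DMSO, all 10 members of PL were nearer to N2 in fitted value than at 6 h, and rad-50 was above it. In all, 7 genes were called lower and 1 higher, where 31.0% of genes were called lower and 24.0% higher, with a median of -0.71 against -0.18 over all genes. rad-50 stood at 117 and 135 CPM in N2 and at 195 and 174 in PL, a log2 fold change of 0.55 ± 0.18 (adjusted p = 0.0133). It was also higher relative to the germline genes, by 0.43 (adjusted p = 0.0222; 20.7% of genes higher), but not called there without nos-2 (0.30, adjusted p = 0.0895). With TMM the rad-50 call was lost without N2 DMSO replicate 1 (0.45, adjusted p = 0.109), without PL DMSO replicate 1 and in the fit of all 52 libraries (adjusted p = 0.148). rad-51 overlapped between the genotypes, at 56.3 and 63.9 CPM in N2 and 67.6 and 57.8 in PL (0.06 ± 0.14, adjusted p = 0.738). Farthest from N2 were the crossover genes zhp-3 at -1.18 ± 0.20 (adjusted p = 3.4e-05) and him-14 at -1.07 ± 0.19 (adjusted p = 5.47e-05), followed by dsb-1 at -0.92, dsb-2 at -0.90 and cosa-1 at -0.75. msh-5, at -0.25 ± 0.12 (adjusted p = 0.0814), was not called. spo-11, at 29.0 and 30.9 CPM in N2 and 20.6 and 16.8 in PL, was the call nearest to the threshold (-0.67 ± 0.27, adjusted p = 0.036) and was lost with RLE (-0.48, adjusted p = 0.145), with DESeq2 (adjusted p = 0.117) and with any 1 of the 4 libraries left out (adjusted p of 0.0519 to 0.206). Without the filter on low counts, and in the fit of all 52 libraries, 4 members were called in place of 8.

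The same change can be read along time within a genotype. In N2 in DMSO the members' median from 6 to 18 h was -0.31 against 0.0 over all genes. With RLE these medians were -0.46 and -0.1, and relative to the germline genes they were 0.15 and 0.46, so the sign depended on the scaling. Mean spo-11 in N2 in DMSO was 42.5 CPM at 6 h and 30 at 18 h, a difference that was not called. In PL in DMSO 8 genes were higher at 18 h than at 6 h, where 16.7% of genes were called higher, with a median of 0.72 against 0.19 over all genes. rad-50 led, from 52.9 and 79.3 CPM at 6 h to 195 and 174 at 18 h (1.48 ± 0.19, adjusted p = 7.36e-06), followed by mre-11, from 35 and 39 to 85.4 and 68.1 (1.05 ± 0.13, adjusted p = 6.03e-06). The end-processing pair thus had the largest fitted rises of the 10. Relative to the germline genes rad-50 was the only member called, at 0.79 (adjusted p = 0.00126; 0.698% of genes higher). The count of 8 fell to 5 without either PL DMSO 6 h library, to 3 without PL DMSO 18 h replicate 1, and to 4 with RLE, under which the members' median was 0.48 and that of all genes -0.03. The oocyte genes also moved, with means of 7.28 and 7.4 (log2) in the PL DMSO libraries of 6 h and 8.13 and 8.49 at 18 h. Those of the sperm genes were 5.14 and 5.31 at 6 h and 4.19 and 4.74 at 18 h. The part of these lists in the members' changes was not tested. In PL in U0126 all 10 were higher at 18 h (22.9% of genes higher), from 0.91 for rad-51 to 1.37 for him-14, and 0 were called relative to the germline genes (51.1% of genes in either direction; 1 member at an unadjusted p under 0.05). In N2 over the same hours 1 gene was called in DMSO, msh-5 at -0.44 ± 0.12 (adjusted p = 0.0167; 4.96% of genes lower), and 1 in U0126, mre-11 at 0.38 ± 0.12 (adjusted p = 0.0491; 5.01% of genes higher), and neither was called with any 1 of the libraries compared left out.

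The drug comparison set U0126 against DMSO at the same hour. Before 18 h, 1 member was called, in 1 genotype at 1 hour. In N2, edgeR called 0 of 10 at 1 h and at 2 h, with 0 at an unadjusted p under 0.05 and 0 with DESeq2, where 0.0674% and 1.05% of genes were called in either direction. At 6 h it called 0 of 10 in N2, with 2 at an unadjusted p under 0.05 and 3 with DESeq2, where 3.88% of genes were called in either direction. All 10 fitted values at that hour were positive, from 0.20 to 0.32. In PL it called 0 of 10 at 1 h, 2 h and 4 h, where 0.374%, 1.49% and 2.02% of genes were called in either direction, with 0, 1 and 1 at an unadjusted p under 0.05 and 0 with DESeq2 at each. In PF over 1 to 6 h it called 0 of 10, with 1 at an unadjusted p under 0.05 and 0 with DESeq2, where 0.641% of genes were called in either direction.

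The exception was dsb-1 in PL at 6 h, the 1 member called of 10, where 2.21% of genes were called higher. It stood at 11.2 and 11 CPM in DMSO and at 22.2 and 20 in U0126, a log2 fold change of 0.92 ± 0.20 (adjusted p = 0.0138). The DMSO value was flat over the hours before, at 12.8 and 10.9 CPM at 2 h and 11.5 and 10.1 at 4 h. At 4 h in U0126 it was 13.6 and 18.1 CPM, a difference of 0.55 ± 0.21 that was not called (adjusted p = 0.291), while relative to the germline genes it was, at 0.74 (adjusted p = 0.0276; 1.73% of genes higher), as it was at 6 h, at 0.79 (adjusted p = 0.043; 0.202%), though not without nos-2 (0.76, adjusted p = 0.061). The 6 h call was lost with any 1 of the 4 libraries left out, at values of 0.85 to 1.00 and adjusted p-values of 0.0594 to 0.129, and in the fit of all 52 libraries (adjusted p = 0.57). It held with RLE (0.84, adjusted p = 0.0452) and with DESeq2 (adjusted p = 0.00575). In N2 dsb-1 at 6 h was at 47.3 and 52.1 CPM in DMSO and 63.7 and 60.5 in U0126 (0.32, adjusted p = 0.388), and the difference of the responses was not called (0.60 ± 0.27, adjusted p = 0.595; 0.282% of genes in either direction). The single PF libraries gave 6.62 CPM in DMSO and 17 in U0126 at 6 h, but 7.32 and 4.37 at 1 h, and over the hours 0.34 ± 0.32 (adjusted p = 0.859).

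At 18 h, 9 of the 10 members were called higher in U0126 in N2 and 8 of the 10 in PL. In N2, the 9 were higher in U0126, where 23.0% of genes were called higher, with a median log2 fold change of 0.80 against -0.40 over all genes; RLE put these medians at 1.24 and 0.00. dsb-1 led with 41.5 and 36 CPM in DMSO and 79.7 and 82.5 in U0126 (1.06 ± 0.19, adjusted p = 7.22e-05). mre-11 followed with 106 and 105 CPM against 206 and 208 (0.97 ± 0.13, adjusted p = 2.26e-06). The replicates lay close together for both. rad-51, at 56.3 and 63.9 CPM against 107 and 102, and rad-50, at 117 and 135 against 228 and 211, had a like difference of 0.80 (adjusted p = 7.2e-05 and 0.000732). zhp-3 was the member not called, at 35.0 and 33.0 CPM against 47.3 and 43.9 (0.42 ± 0.19, adjusted p = 0.0657), and was called with DESeq2, which called all 10. Relative to the germline genes 0 of the 10 were called in N2 (edgeR; 1 at an unadjusted p under 0.05; 56.7% of genes in either direction), with values from -0.44 to 0.20. The germline genes themselves were higher in U0126, 11 of 12 called, at means of 7.99 and 8.02 against 7.13 and 7.16 in DMSO. Their N2 DMSO means at 1 to 6 h were 7.59 to 7.99, so the DMSO libraries at 18 h lay under that range. Mean spo-11 in N2 was 50.6 CPM in DMSO at 1 h, 30 in DMSO at 18 h and 54.2 in U0126 at 18 h. For dsb-1 these means were 53.5, 38.8 and 81.1 CPM. All 6 somatic genes of intestine and muscle were lower in U0126, where 35.6% of all genes were called lower. Their means were 6.01 and 6.02 against 7.31 and 7.44 in DMSO. Means of the oocyte genes were 8.64 and 8.7 in DMSO and 9.41 and 9.45 in U0126. Those of the spermatocyte genes were 3.68 and 3.69 in DMSO and 4.51 and 4.72 in U0126. Those of the molting genes were 5.06 and 5.26 in DMSO and 3.22 and 3.35 in U0126. The part of these lists in the members' difference between treatments was not tested.

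In PL at 18 h the 8 were higher where 20.7% of genes were called higher, with a median of 0.60 against -0.15 over all genes. dsb-1 again led, with 23.7 and 17 CPM in DMSO and 56.3 and 47.3 in U0126 (1.34 ± 0.19, adjusted p = 1.25e-05). him-14 followed with 24.1 and 22.1 CPM against 49.8 and 53.7 (1.16 ± 0.19, adjusted p = 5.23e-05), then zhp-3 with 15.5 and 14.4 against 27 and 30.7 (0.95 ± 0.20, adjusted p = 0.000829). These were 2 crossover genes and 1 of break formation. rad-50 was not called, at 195 and 174 CPM in DMSO and 182 and 183 in U0126, the latter inside the former (-0.01 ± 0.18, adjusted p = 0.981). spo-11, at 20.6 and 16.8 CPM against 25.4 and 27.5, was not called (0.50 ± 0.27, adjusted p = 0.188). Relative to the germline genes, of which 8 of 12 were higher in U0126, dsb-1 (0.88, adjusted p = 0.000932) and him-14 (0.70, adjusted p = 0.0032) were still higher, where 5.4% of genes were, and rad-50 was lower (-0.48, adjusted p = 0.0271), where 18.7% were. nos-2, the neighbour of him-14, was at 0.55 and not called (adjusted p = 0.308). In the same PL libraries the oocyte genes went from means of 8.13 and 8.49 to 9.1 and 9.57, the spermatocyte genes from 4.41 and 4.44 to 5.48 and 5.63, and the somatic genes from 8.02 and 8.05 to 7.43 and 7.62. Their part in the members' difference between treatments was not tested. Without PL DMSO 18 h replicate 2 the 8 calls were 4. In U0126 PL remained lower than N2 at 8 of the 10 at 18 h (22.1% of genes lower; median -0.65 against 0.19 over all genes), with rad-51 at -0.24 (adjusted p = 0.16) and rad-50 at -0.27 (adjusted p = 0.221) not called; RLE, which put the median of all genes at -0.13, called all 10. On the germline scale 3 were called lower (spo-11, dsb-2 and mre-11; 8.79% of genes lower), and 7 without nos-2 in the list.

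**Figure D4:**
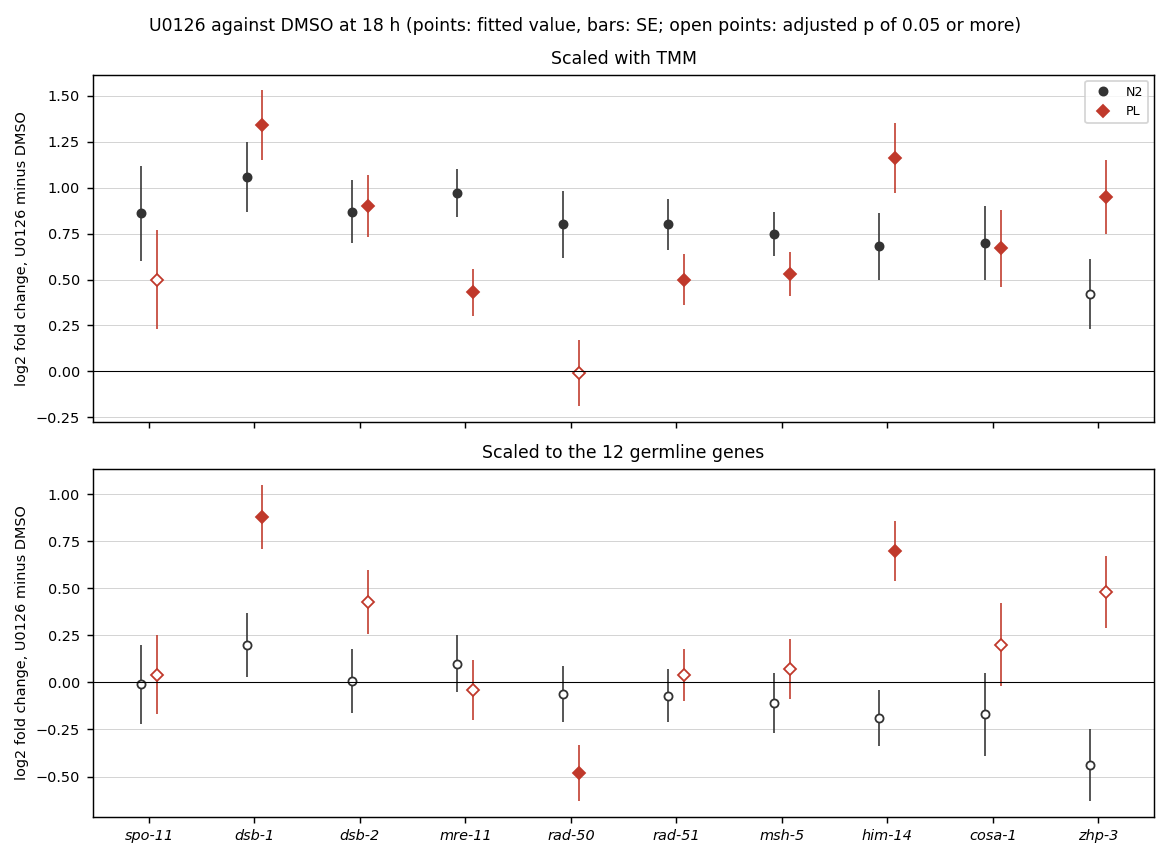
Fitted log2 fold change (U0126 minus DMSO at 18 h) of each gene with its SE in N2 (black circles) and PL (red diamonds), scaled with TMM (upper panel) and to the 12 germline genes (lower panel); open points have an adjusted p of 0.05 or more. In the upper panel all values but that of rad-50 in PL are above 0; in the lower panel dsb-1 (0.88) and him-14 (0.70) in PL are above 0 and rad-50 in PL (-0.48) is under it.

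The drug responses of PL and N2 at 18 h were then compared directly. With TMM scaling rad-50 was the 1 member called, with a response in PL lower than in N2 by 0.81 on the log2 scale (-0.81 ± 0.26, adjusted p = 0.0498), where 1.14% of genes were called lower. mre-11 was next, at -0.54 ± 0.18 (adjusted p = 0.061), so the end-processing pair stood at the same end of the order. At the other end were zhp-3 at 0.52 and him-14 at 0.48, neither called. RLE moved the median of all genes from 0.29 to -0.23 and with it rad-50 to -1.35 (adjusted p = 0.0012), mre-11 to -1.08 (adjusted p = 0.00026), rad-51 to -0.84 (adjusted p = 0.00815) and msh-5 to -0.76 (adjusted p = 0.00437), which were all called, and zhp-3 and him-14 to -0.02 and -0.06. Relative to the germline genes the 2 crossover genes were called higher in PL, him-14 by 0.88 ± 0.22 (adjusted p = 0.0123) and zhp-3 by 0.92 ± 0.27 (adjusted p = 0.0255), where 16.5% of genes were, and rad-50 at -0.41 was not (adjusted p = 0.174). A change of scaling moves all genes of a comparison by nearly the same amount. The order, with rad-50 lowest and zhp-3 and him-14 highest, was thus bound to recur under each of the 3 and is no separate evidence. The rad-50 call was lost in 7 of the 8 fits that left out 1 library and held without PL U0126 replicate 2 (-1.31, adjusted p = 0.0113), and it was lost in the fit of all 52 libraries (adjusted p = 0.372). The count of 1 became 0 without either N2 DMSO library, either N2 U0126 library, PL DMSO replicate 1 or PL U0126 replicate 1, and 4 without PL U0126 replicate 2.

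**Figure D5:**
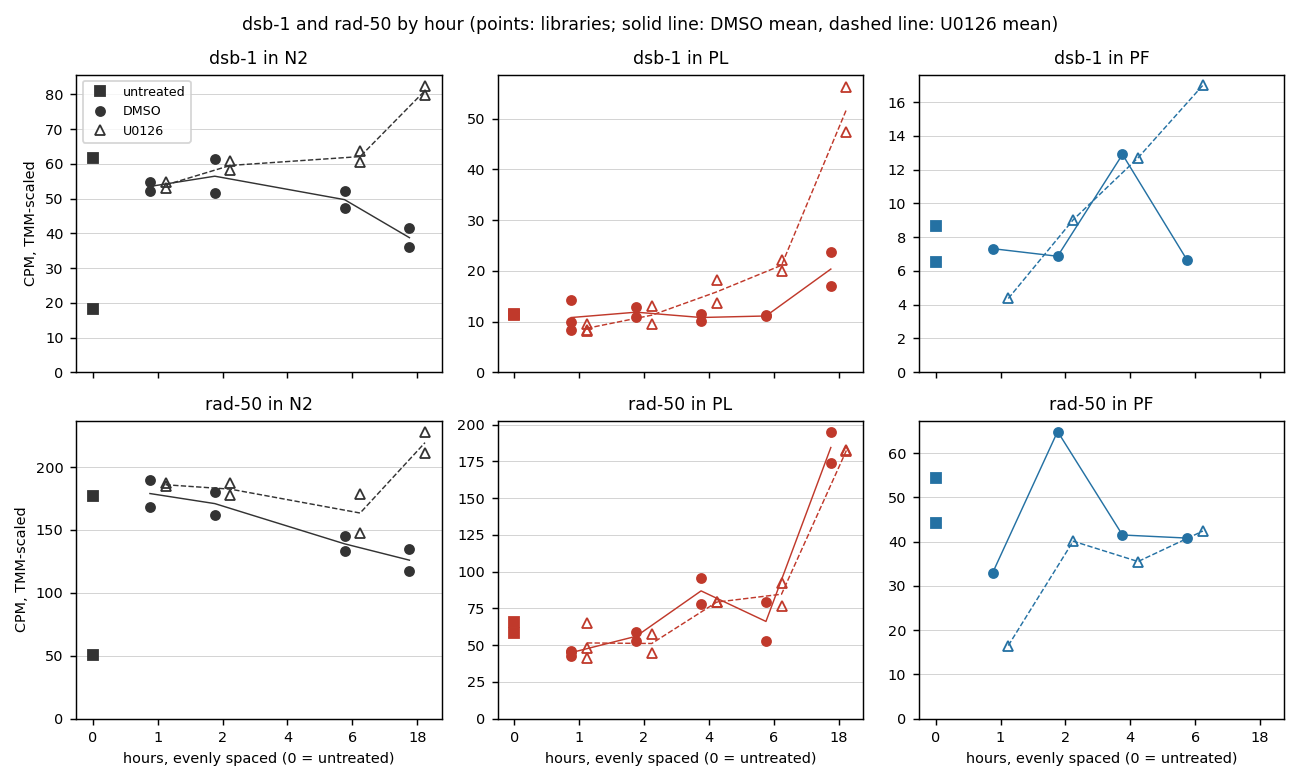
Level of dsb-1 (upper row) and rad-50 (lower row), in CPM after TMM scaling on linear axes that start at 0 and differ between panels, by hour (0 is untreated, hours evenly spaced) in N2, PL and PF; points are libraries and lines join group means (solid DMSO, dashed U0126). For dsb-1 in PL the U0126 libraries leave the DMSO ones at 6 h (22.2 and 20 against 11.2 and 11) and more so at 18 h, while for rad-50 in PL both treatments rise together to 174 to 195 CPM.

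Other genes of recombination and repair were listed by role: 8 other break-formation genes, 18 of resection and strand exchange, 17 of crossover and meiotic resolution, and 4 of end joining. In PL against N2 in DMSO at 2 h, 8 of 8, 17 of 18, 17 of 17 and 4 of 4 were lower, with list medians of -1.69, -1.64, -1.51 and -1.29 against 0.45 over all genes and -1.98 for the 10 members (32.9% of all genes lower). Scaled to the germline genes, the counts lower were 4, 10, 7 and 1, with 2 genes of resection and exchange and 3 of crossover higher, where 12% of all genes were lower. Examples with TMM were xnd-1 (-1.97), a chromatin factor that shapes where crossovers fall, htp-3 (-1.68), a protein of the chromosome axis, exo-1 (-1.95), an exonuclease, brc-1 (-2.26), the worm BRCA1, him-6 (-1.91), the worm Bloom helicase, and cku-80 (-2.56), a Ku subunit of end joining. PF against N2 gave the same counts, with medians of -1.80, -1.54, -1.73 and -1.58 (37.7% of all genes lower). Counts of 5, 8, 7 and 1 were lower relative to the germline genes (16%). The end-joining genes, which do not serve meiotic crossing over, were thus called lower at 4 of 4 with TMM and at 1 of 4 relative to the germline genes. At 18 h in DMSO the counts lower in PL were 6, 11, 8 and 1, where 31.0% of all genes were. There 1 gene of resection and exchange and 1 of crossover were higher.

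In U0126 at 18 h, the lists were higher in N2 at 6 of 8, 17 of 18, 17 of 17 and 4 of 4 genes, with medians of 0.90, 0.76, 0.94 and 0.81 (23.0% of all genes higher). With scaling to the germline genes 0, 0, 1 and 0 were higher (0.962% of all genes) and 1, 2, 0 and 1 lower. xnd-1 (1.10), rtel-1 (1.26), a helicase that restrains recombination, xpf-1 (1.31), a structure-specific nuclease subunit, and cku-70 (0.95) were among those named by smallest adjusted p. In PL the counts were 6 of 8, 14 of 18, 16 of 17 and 2 of 4, with medians of 0.77, 0.66, 0.88 and 0.47 (20.7% of all genes higher). Counts of 4, 1, 8 and 0 were higher relative to the germline genes (5.4%). There, with TMM, xnd-1 (1.21), dsb-3 (1.23), a partner of dsb-1 and dsb-2, rtel-1 (0.98) and slx-1 (1.51), a nuclease subunit, were higher. In PL at 6 h, where dsb-1 was the 1 member called, xnd-1 was higher by 0.76 (adjusted p = 0.000323), htp-3 by 0.53, hus-1, of the checkpoint clamp, by 0.79 and pms-2, a mismatch repair gene, by 0.51. No other gene of the lists was called there, and 2.21% of all genes were called higher. In the difference of responses at 18 h, where rad-50 was called, helq-1, a helicase of repair, was at -0.86 (adjusted p = 0.0125) and cdk-2 at -0.90 (adjusted p = 0.00431). The rest of the lists were not called, where 1.14% of all genes were called lower.

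The members' profiles over the 46 liquid-medium libraries were compared with those of 8439 other named genes by the root mean square (RMS) difference of centred log2 levels, which smaller values mark as more alike. The nearest genes were pbrm-1 to mre-11 (0.123), mel-11 to rad-51 (0.135), cec-6 to msh-5 (0.146), ztf-4 to dsb-2 (0.162), gcna-1 to zhp-3 (0.187), swd-2.2 to him-14 (0.187), nop-1 to cosa-1 (0.192), grp-1 to spo-11 (0.213), polh-1 to dsb-1 (0.219) and npp-21 to rad-50 (0.228). Among the members themselves zhp-3 and him-14 were the nearest to each other, at 0.216. rad-51 was the member farthest from spo-11, him-14, cosa-1, zhp-3, mre-11, rad-50 and dsb-1, at 0.566 (cosa-1) to 0.760 (dsb-1). The libraries share genotype, hour and treatment, so these values describe the profiles and carry no p.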

How the data were processed

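Whole counts of reads per gene were deposited by the authors, 1 table per library, as raw counts with no normalization; per the submitters' processing notes CASAVA, TopHat, DESeq and the build ce10 were named, with versions and counting settings not given in the sources used here. Per the labels' protocols the libraries were TruSeq RNA from Trizol extracts. Of 45461 IDs, 44936 matched a WBcel235 gene name and 525 did not; sequences and promoter letters were not analysed here. Genes with at least 1 CPM in at least 2 libraries were kept. After TMM scaling, edgeR 4.0.16 (R 4.3.3, limma 3.58.1) fitted a trended dispersion and gave quasi-likelihood F tests, on 46 liquid-medium libraries (16323 genes), or on 52 (16462 genes) for untreated worms, with p-values adjusted by Benjamini-Hochberg over all genes and called under 0.05. PF was fitted with hour as a factor. The SE is the absolute log2 fold change divided by the root of F. Alternatives were RLE, no filter, a robust fit, DESeq2 1.42.0, all 52 libraries, a replicate block and each library left out; the scripts were tested on simulated data. The text names all members, the 4 called genes of a pathway list with the smallest adjusted p (a few of them given) and the nearest profile per member. The members and lists were chosen with earlier results of these data known. Same-numbered PL 1 h libraries deviated together (r = 0.784, 0.841 and 0.909), which met the rule for pairing, but replicates 1 and 2 did so across numbers too (r = 0.745 and 0.698), replicate 3 standing apart; other groups had 2 pairs (r from -0.0457 to 0.528). A sperm marker, msd-1, matched 2 IDs and was left out. No pair of replicates agreed within sampling noise (chi-square per degree of freedom of at least 2.63 over 25 pairs). Intervals and errors cover the spread between libraries only.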

Additional observations from a re-analysis of the deposited data

Results flagged for a closer look

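The drug responses of PL and N2 at 18 h were set against each other by the interaction term of the edgeR fit, and the members called depended on the scaling. With TMM rad-50 alone was called, with a response lower in PL by 0.81 on the log2 scale (-0.81, adjusted p = 0.0498). Its N2 libraries were at 117 and 135 CPM in DMSO and 228 and 211 in U0126, and its PL libraries were at 195 and 174 in DMSO and 182 and 183 in U0126. The call was lost in 7 of the 8 fits that left out 1 library (adjusted p of up to 0.158), in the fit of all 52 libraries (adjusted p = 0.372) and relative to the germline genes (-0.41, adjusted p = 0.174), and held with RLE (-1.35, adjusted p = 0.0012). With libraries scaled to the 12 germline genes, the responses of him-14 (0.88) and zhp-3 (0.92) were higher in PL, and neither was called with TMM or RLE scaling. No group held 4 or more libraries, so single libraries far from their group were not tested.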

How the results depend on the processing

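Over single members and comparisons, 1677 of 1800 values under the alternatives kept their side of the threshold, 68 fell short of it and 55 passed it, and of the 1677, 61 that were called in neither fit had the opposite sign. With 1 library left out 1521 of 1590 kept their side, 122 of them uncalled with the opposite sign, 58 fell short and 10 passed. The 1 called value that turned was rad-50 in untreated PL against N2, 0.28 without N2 replicate 1 and -1.51 without N2 replicate 2. Counts of members called moved as follows. RLE gave 2 for the N2 drug at 6 h (0), 4 for the difference of responses at 18 h (1), 4 for N2 DMSO (1), 4 for N2 U0126 (1) and 4 for PL DMSO (8) at 18 h against 6 h. DESeq2 gave, in the same order, 3, 4, 6, 5 and 4, and 1 for PL against PF (0). Without the filter there were 4 for PL against N2 in DMSO at 18 h (8), 0 for the PL drug at 6 h (1), 2 for the difference of responses, and 3, 2 and 2 over time. The fit of all 52 libraries gave 4 for PL against N2 in DMSO at 18 h, 0 for the PL drug at 6 h, 5 at 18 h (8), 0 for the difference of responses, and 0, 0 and 2 over time. The replicate block gave 2 for the N2 drug at 6 h, 2 for the difference of responses at 18 h, and 3 and 3 for N2 over time, and moved no other count by over 1.5 times. The 6 untreated libraries alone gave 0 for both mutants (10 each), and contrasts from the 46-library fit gave 3 for PL against PF and 1 for the PF drug (0). Relative to the germline genes, leaving nos-2 out, a choice made after seeing the data, gave 7 for PL against N2 in U0126 at 18 h (3), 1 for the N2 drug at 18 h (0), 0 for the PL drug at 6 h (1) and 1 for PL U0126 over time (0); leaving out csr-1, ego-1 and drh-3 gave 1 for the N2 drug at 18 h. The cause of these moves was not tested.

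With each library left out in turn, where a lone library left in a group was assumed to vary like the other groups, counts ran from 10 to 10 for PL against N2 in DMSO at 1, 2 and 6 h and for PF, 6 to 7 at 18 h in DMSO, 6 to 10 in U0126, 0 to 1 for PL against PF, 5 to 10 and 7 to 10 for untreated PL and PF against N2, and 0 to 0 for untreated PL against PF. For the drug they ran from 0 to 0 in N2 at 1, 2 and 6 h, 9 to 9 at 18 h, 0 to 0 in PL at 1, 4 and 6 h, 0 to 1 at 2 h, 4 to 8 at 18 h and 0 to 0 in PF, and for differences of responses from 0 to 0 at 6 h and against PF and 0 to 4 at 18 h. Over time they ran from 0 to 0 in N2, 3 to 7 in PL DMSO and 9 to 10 in PL U0126.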
